A study of Arabidopsis thaliana with 11 samples.

Results

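The loci described here were the nuclear tRNA genes of *Arabidopsis thaliana* whose consensus sequence had no entry in the list of 5-methylcytosine (m5C) sites. In the reference table, tRNA genes with the same or nearly the same sequence share 1 consensus entry, named by amino acid, anticodon and genome of origin (N nuclear, C chloroplast, M mitochondrial). Of 100 entries with 687 loci, 58 entries with 612 loci were of origin N only. Among these, 34 entries with 355 loci were absent from the first column of the m5C table (unlisted), and 24 entries with 257 loci were present (listed). The unlisted entries were therefore 58.6% of the N entries and held 58% of the N loci. They covered 15 amino acids and 1 entry of undetermined anticodon.

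The m5C list came from RNA bisulfite sequencing, in which unmethylated cytosine is read as thymine and methylated cytosine remains cytosine, on tRNA purified from gels. The 11 libraries were made from the Columbia ecotype. In seedlings taken 10 days after germination there was 1 library each of the T-DNA insertion mutants *trm4a*, *trm4b-1*, *trdmt1*, *nsun5-2* and *nop2a-2* and of the double mutant *trdmt1 trm4b*, which carries the *trdmt1* and *trm4b-1* alleles, against 3 wild type libraries given as the authors' mean. In mixed buds there was 1 library of *trm4b-2* and 1 of wild type. A site was listed where at least 5 reads covered it and at least 20% of them held a cytosine, so the unlisted loci were chosen by measured values: the absence of a methylation level that passed those limits. The deposited tables hold no level for any unlisted entry and no read number, so these tables do not separate entries that were not covered from entries that were covered and not methylated, and absence from the list is not a measurement of 0. In its text the study gave counts of detected tRNAs with and without methylation over all genomes. It listed the tRNAs by name in its supplementary material, which was not used here. The text states that Val(AAC) lacks methylation at C38 in this species and that Leu(CAA) was not among the tRNAs detected. It adds that, of the detected tRNAs, only Asp(GTC), Gly(CCC) and Gly(GCC) were methylated at C38. Listed entries must hold a C at their listed position, and the loci of an entry share 1 consensus, so the comparisons of unlisted with listed entries below are counts with no test. The sequence of single loci was not read, and counts of loci by base give each locus the base of its consensus. Every listed name was found among the N entries. Both tables listed the same 39 sites, so the bud table was not taken as a separate check of which entries are unlisted.

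A tRNA carries 1 amino acid to the ribosome and reads the codon through the anticodon, its positions 34 to 36. In eukaryotes, the methyltransferase TRDMT1 (DNMT2) acts on C38, in the anticodon loop, and TRM4 (NSUN2) acts mainly on C48, C49 and C50, where the variable loop meets the T stem. Methylation at these sites is known to protect tRNA from cleavage and to support its stability and folding. The 39 listed sites fell at C38 (3), C48 (16), C49 (14), C50 (5) and C72 (1), with wild type seedling levels of 23% to 100% and a median of 90%.

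The consensus sequences that carry the largest unlisted clusters and the extremes of cytosine content are shown, each 5′ to 3′ as DNA, with a C at positions 38, 48, 49 or 50 in capitals. Position 38 was taken as the second base after the anticodon, and 48, 49 and 50 were counted back from the last base of the consensus, taken as 73. The first set holds the Tyr and Ser entries that alternate in the largest cluster and the Pro entries that form 3 others, with the Leu(AAG)1 entry found among them.
Tyr(GTA): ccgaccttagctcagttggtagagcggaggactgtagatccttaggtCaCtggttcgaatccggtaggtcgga
Ser(AGA): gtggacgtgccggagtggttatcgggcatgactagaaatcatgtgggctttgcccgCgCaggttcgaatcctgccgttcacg
Pro(TGG): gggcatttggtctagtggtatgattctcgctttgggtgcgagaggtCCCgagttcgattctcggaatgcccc
Pro(AGG): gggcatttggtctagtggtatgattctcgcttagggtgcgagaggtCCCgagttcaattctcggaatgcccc
Pro(CGG): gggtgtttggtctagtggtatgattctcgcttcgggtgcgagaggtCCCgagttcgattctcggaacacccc
Leu(AAG)1: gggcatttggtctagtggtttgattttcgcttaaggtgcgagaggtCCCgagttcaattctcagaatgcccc

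The second set holds the 6 unlisted entries with a C at 38, the position that TRDMT1 methylates in other tRNAs. In Gly(ACC) the T loop bases stand off the place expected from the last base, so its capitals at 49 and 50 are shifted. Counted back from its T loop instead, 48, 49 and 50 are all C.
Val(AAC): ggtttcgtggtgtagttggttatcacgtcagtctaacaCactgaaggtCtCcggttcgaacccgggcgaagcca
Val(TAC): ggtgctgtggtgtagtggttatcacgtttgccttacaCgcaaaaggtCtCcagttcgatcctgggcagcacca
Leu(TAG): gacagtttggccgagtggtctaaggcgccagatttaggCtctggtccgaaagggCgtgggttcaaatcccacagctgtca
Gly(ACC): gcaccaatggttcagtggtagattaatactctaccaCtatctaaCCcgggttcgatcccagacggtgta
Leu(GAG): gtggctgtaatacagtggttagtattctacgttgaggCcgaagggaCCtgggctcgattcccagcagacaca
Met-e-(CAT)1: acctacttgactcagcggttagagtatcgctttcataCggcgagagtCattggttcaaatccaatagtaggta

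The third set holds the 4 unlisted entries with no C at 48, 49 or 50, which therefore show no capitals, and the initiator methionine entry, which has a C at each of the 3 positions.
Arg(CCG): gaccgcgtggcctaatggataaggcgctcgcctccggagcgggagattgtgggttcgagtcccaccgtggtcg
Arg(TCT): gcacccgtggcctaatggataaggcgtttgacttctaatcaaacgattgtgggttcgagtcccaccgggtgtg
Ile(AAT)1: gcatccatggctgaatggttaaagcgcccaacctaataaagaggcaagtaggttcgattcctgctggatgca
Thr(CGT)1: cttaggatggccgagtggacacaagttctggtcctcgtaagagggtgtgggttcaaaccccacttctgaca
Met-i-(CAT): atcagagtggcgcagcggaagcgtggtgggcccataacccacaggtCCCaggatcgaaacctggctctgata

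Which amino acids the unlisted loci serve was counted first. For 7 of 20 amino acids every N entry was unlisted: Tyr with 71 loci, Pro with 65, Met with 22, Phe with 16, Asn with 15, Cys with 14 and Trp with 13. These 7 amino acids made up 12 of the 34 unlisted entries and 216 of the 355 unlisted loci (60.8%). For 5 amino acids (Ala, Asp, Gln, Glu and His) no N entry was unlisted. The other 8 amino acids had both kinds and held 138 unlisted loci (38.9%), and the entry of undetermined anticodon held the remaining locus.

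Within the amino acids that had both kinds, the share of unlisted loci covered nearly the whole range. Leu had 36 unlisted and 5 listed loci, so that 87.8% were unlisted, and only the Leu(TAA) entry was on the list. Val had 22 unlisted and 8 listed loci, Ser 39 and 22, Arg 21 and 15, Thr 11 and 13, and Ile 7 and 17. Gly and Lys were at the low end, with 1 unlisted locus each beside 39 and 30 listed loci. The unlisted Ser loci were 37 of Ser(AGA) and 2 of Ser(GCT)1, and the other 3 N entries of Ser were on the list.

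The unlisted entries held more uneven gene numbers than the listed ones, with both larger and smaller families. The mean was 10.4 ± 14.3 loci per unlisted entry (SD over 34 entries) and 10.7 ± 5.43 per listed entry (SD over 24 entries), and the medians were 7.5 and 9.5. The range was 1 to 70 loci in unlisted entries and 4 to 25 in listed entries. The means therefore differed by far less than the spread within either group.

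Of the unlisted entries, 7 had 15 loci or more and together held 213 of the 355 loci. Tyr(GTA), with 70 loci, was the largest N entry, followed by Pro(TGG) with 44 and Ser(AGA) with 37. These 3 entries held 42.5% of all unlisted loci, against 24.9% for the 3 largest listed entries. The other large unlisted entries were Phe(GAA) and Pro(AGG) with 16 loci each and Asn(GTT) and Val(AAC) with 15 each. The listed entries had 5 of this size, the largest being Asp(GTC) with 25 loci and Gly(GCC) with 22.

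**Figure D1:**
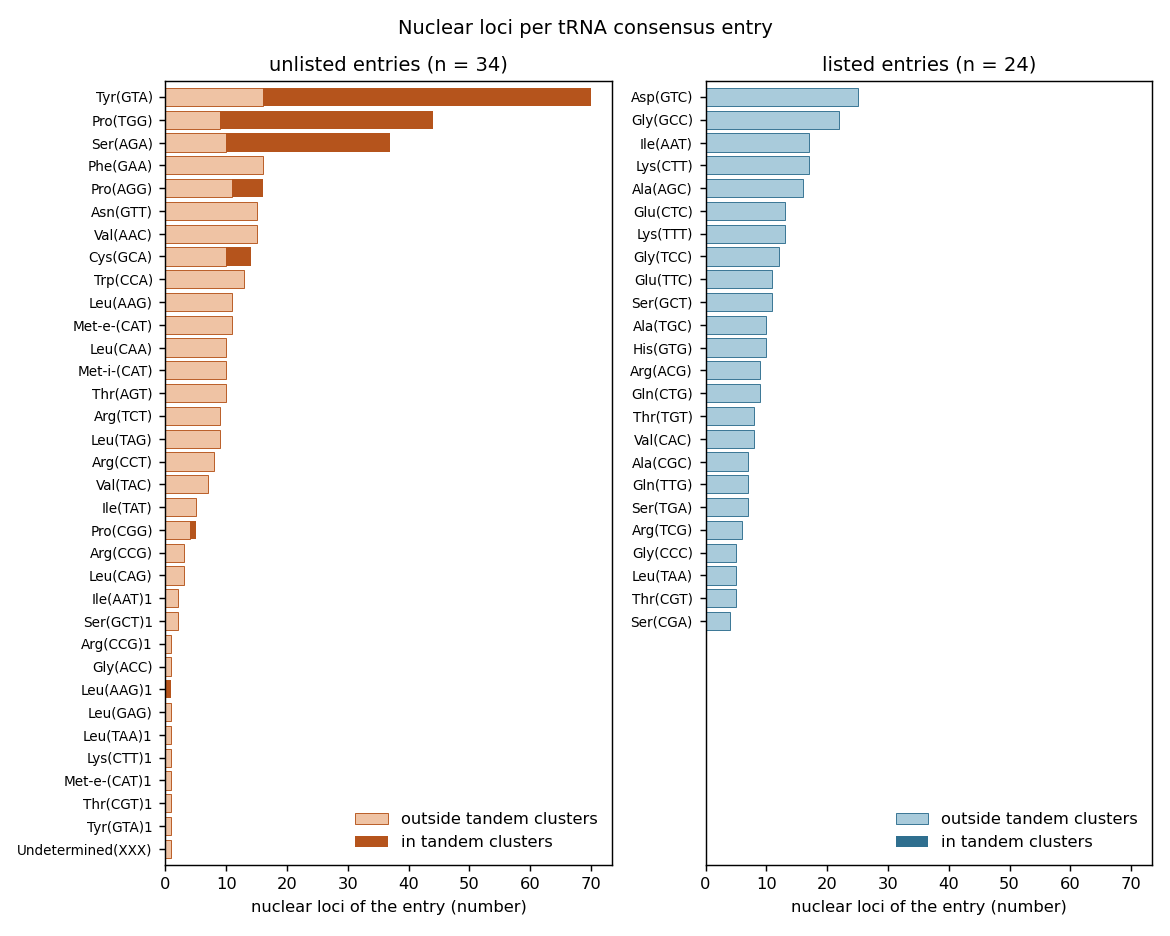
Number of nuclear loci of each consensus entry, with 34 unlisted entries on the left and 24 listed entries on the right, both on the same axis. Dark bars count loci in tandem clusters (runs of at least 3 nuclear tRNA loci with gaps of at most 5 kb) and pale bars the others. Tyr(GTA), Pro(TGG) and Ser(AGA) reach 70, 44 and 37 loci, and no listed entry has a dark bar.

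At the other end, 12 unlisted entries had 1 or 2 loci, 14 loci in all, whereas no listed entry had fewer than 4. The entries with 2 loci were Ile(AAT)1 and Ser(GCT)1. Those with 1 locus were Arg(CCG)1, Gly(ACC), Leu(AAG)1, Leu(GAG), Leu(TAA)1, Lys(CTT)1, Met-e-(CAT)1, Thr(CGT)1, Tyr(GTA)1 and the undetermined entry. A closing digit in the name, which separates a second consensus with the same anticodon, occurred in 9 unlisted entries with 11 loci and in 0 listed entries. For 5 of these 9 (Ile(AAT)1, Leu(TAA)1, Lys(CTT)1, Ser(GCT)1 and Thr(CGT)1, with 7 loci) the entry without the digit was listed.

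All 355 unlisted and all 257 listed loci were found in the RefSeq gene table of assembly TAIR10.1 by their gene identifier. RefSeq gives 349 unlisted loci the gene type tRNA and 6 the type pseudogene, against 256 and 1 of the listed loci. The 6 unlisted pseudogenes were both Ile(AAT)1 loci and the single loci of Leu(AAG)1, Leu(GAG), Lys(CTT)1 and the undetermined entry. The listed one was 1 of the 11 Glu(TTC) loci. The pseudogene type thus fell on 5 of the 12 unlisted entries with 1 or 2 loci and on none of the larger unlisted entries.

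Several small unlisted entries were closest to a tRNA of another name or another genome. Identity here is 100% minus the edit distance (substitutions, insertions and deletions) over the length of the longer sequence. Leu(AAG)1, at chr1:17157360-17157431 on TAIR10, differed from Pro(AGG) by 4 edits (94.4% identity) and lay inside a run of Pro(TGG) loci. Leu(GAG), at chr2:9284034-9284105, was nearest to the listed His(GTG) entry, with 83.3% identity and 12 edits. Thr(CGT)1, at chr2:14750064-14750134, was nearest to Leu(CAA) with 79.8% identity. Leu(TAA)1, at chr4:6837560-6837643, had 92.9% identity with Leu(CAA), 6 edits, although the listed Leu(TAA) entry has the same anticodon. The undetermined entry, at chr1:21374319-21374389, reached only 60% identity with any other entry.

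The 6 N loci with identifiers of the form AT2G077 were all unlisted and stood within 255 kb of chromosome 2, the first starting at 3239657 and the last ending at 3494419. They were the 2 Ile(AAT)1, the 2 Ser(GCT)1, the Tyr(GTA)1 and the Met-e-(CAT)1 loci. All 4 entries were nearest to an entry that includes an organelle. Met-e-(CAT)1 had 93.2% identity with the chloroplast Met-e-(CAT) entry, and Ser(GCT)1 had 90.9% with the mitochondrial Ser(GCT) entry. Ile(AAT)1 had 85.1% identity with the chloroplast Ile(CAT)1 entry, and Tyr(GTA)1 had 81.2% with the Tyr(GTA)1 entry shared by the mitochondrial and nuclear genomes. Chromosome 2 of the Columbia ecotype is known to carry a long insertion of mitochondrial DNA near its centromere, and whether these loci lie in it was not tested.

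Unlisted loci outnumbered listed loci most on chromosome 1. It held 174 of the 355 unlisted loci (49%), against 66 of the 257 listed loci (25.7%). Chromosomes 2, 3, 4 and 5 held 42, 42, 39 and 58 unlisted loci, against 37, 50, 39 and 65 listed loci. Of the unlisted loci on chromosome 1, 114 stood in tandem clusters and 60 outside them. Outside the clusters the shares were close: 26.3% of 228 unlisted loci and 25.7% of 257 listed loci were on chromosome 1. The 4 other chromosomes held between 33 and 54 unlisted loci outside clusters, and between 37 and 65 listed loci. Of the unlisted entries with at least 5 loci, 11 of 20 had loci on all 5 chromosomes, against 13 of 23 listed entries.

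**Figure D2:**
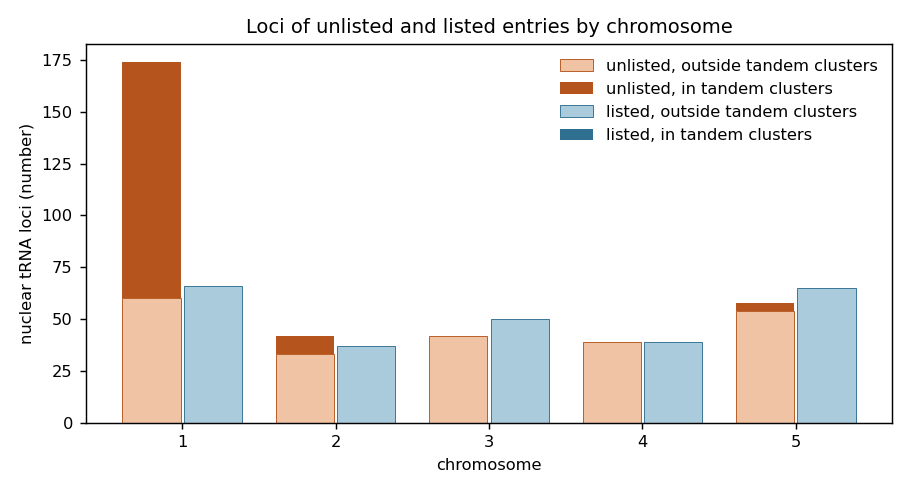
Number of nuclear tRNA loci on each of the 5 chromosomes, unlisted on the left and listed on the right of each pair, with loci in tandem clusters stacked in a dark shade on those outside. On chromosome 1 the unlisted bar reaches 174 loci, of which 60 are outside clusters, and the listed bar 66.

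The tandem clusters were made of unlisted loci. Runs of at least 3 nuclear loci with no more than 5 kb between neighbours numbered 5 and held 127 loci, all 127 unlisted. This was 35.8% of the unlisted loci, and 0 of the 257 listed loci stood in such a run. Leaving out the clustered loci, the largest unlisted entries had 16 loci (Tyr(GTA) and Phe(GAA)), and the mean was 6.71 loci per unlisted entry, against 10.7 per listed entry. The medians outside clusters were 7.5 and 9.5, the same as with every locus counted.

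The largest cluster, chr1:21268787-21308423 on TAIR10, held 81 loci over 39.6 kb, the first being AT1G56730 and the last AT1G57530. It consisted of 54 Tyr(GTA) and 27 Ser(AGA) loci, which are 77.1% of the 70 Tyr(GTA) loci and 73% of the 37 Ser(AGA) loci. From the first locus on, all 27 successive groups of 3 loci had the order Ser, Tyr, Tyr. The start of a Ser(AGA) locus lay 329 to 336 bp before that of the first Tyr(GTA) locus, and the starts of the 2 Tyr(GTA) loci of a group lay 430 to 460 bp apart. The next group began 558 to 745 bp further on. The distance from the start of one Ser(AGA) locus to the next was 1349 to 1537 bp, with a median of 1531 bp over 26 steps. RefSeq places no other gene between the first and the last locus. The undetermined entry lay 65.9 kb beyond its end.

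The next 3 clusters were made mainly of proline tRNA loci and held 41 of the 65 Pro loci. The longest, chr1:10089437-10108781 (AT1G28720 to AT1G28990), held 23 Pro(TGG) and 3 Pro(AGG) loci in 19.3 kb. Its loci started 163 to 4097 bp apart, with a median of 461 bp, and RefSeq places 7 other genes between them, 3 of which code for proteins. The cluster chr2:14350386-14356592 (AT2G33890 to AT2G33970) held 6 Pro(TGG), 2 Pro(AGG) and 1 Pro(CGG) loci, with starts 442 to 1039 bp apart. The cluster chr1:17156607-17162093 (AT1G45234 to AT1G45246) held 6 Pro(TGG) loci and the Leu(AAG)1 locus, with starts 441 to 1549 bp apart. In all, 35 of 44 Pro(TGG) loci were in clusters, beside 5 of 16 Pro(AGG) and 1 of 5 Pro(CGG) loci. The smallest cluster, chr5:7073530-7074843, held 4 of the 14 Cys(GCA) loci, with starts 413 to 416 bp apart.

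**Figure D3:**
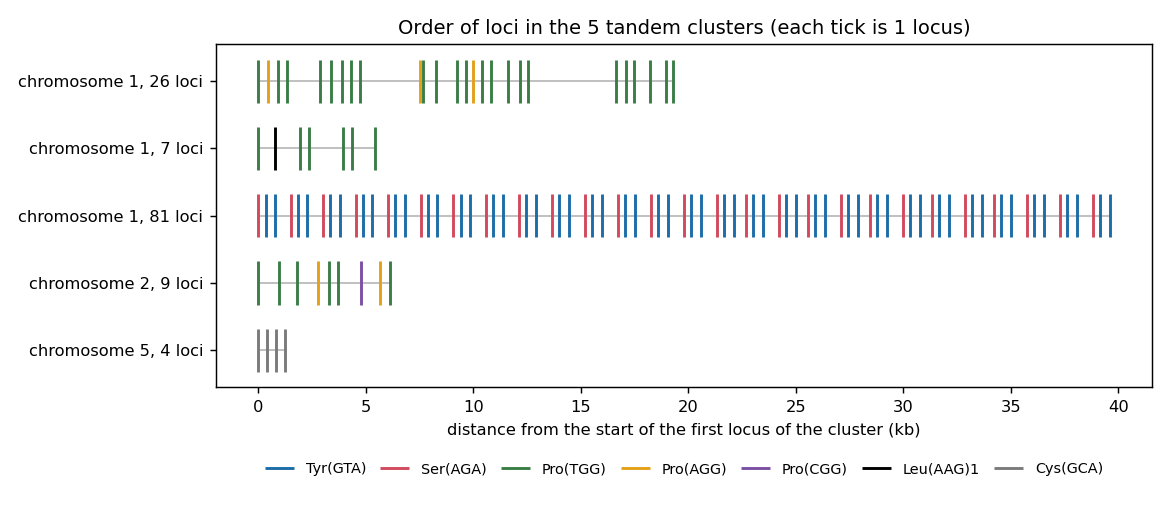
Order of loci in the 5 tandem clusters, 1 row per cluster, with distance in kb from the start of the first locus and 1 tick per locus, coloured by entry. The 81 loci of the longest row repeat 1 Ser(AGA) and 2 Tyr(GTA) loci 27 times over 39.6 kb, whereas the Pro(TGG) loci of the first row are unevenly spaced.

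Outside these runs, unlisted and listed loci stood about equally far from their neighbours. The median distance from an unlisted locus to the nearest nuclear tRNA locus was 14.6 kb, against 56.1 kb for a listed locus. Without the clustered loci the unlisted median was 56.7 kb, with quartiles of 17.3 and 123 kb, against quartiles of 19.2 and 131 kb for listed loci. A neighbour within 5 kb was present for 156 of 355 unlisted loci (43.9%) and for 31 of 257 listed loci (12.1%), and for 29 of the 228 unlisted loci outside clusters (12.7%).

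Pairs of neighbours within 5 kb that belonged to no larger run numbered 30: 12 of 2 unlisted loci, 13 of 2 listed loci and 5 of 1 each. Both loci belonged to the same entry in 8 of the 12 unlisted pairs, 3 of them Phe(GAA) pairs and 2 Trp(CCA) pairs, and in 9 of the 13 listed pairs. Of the 5 pairs that joined an unlisted and a listed locus, 2 joined Val(AAC) and Asp(GTC). These lay on chromosome 1, 53 bp apart, and on chromosome 3, 50 bp apart. Distances run between the intervals of the reference table. The Tyr(GTA) intervals were 36 to 37 bases long for a consensus of 73 bases, the Met-e-(CAT) intervals 36 to 38 for 74 and the Ser(GCT)1 intervals 38 for 80, so these stand for part of the gene only. Nuclear Tyr and elongator Met tRNA genes of plants are known to carry an intron.

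**Figure D4:**
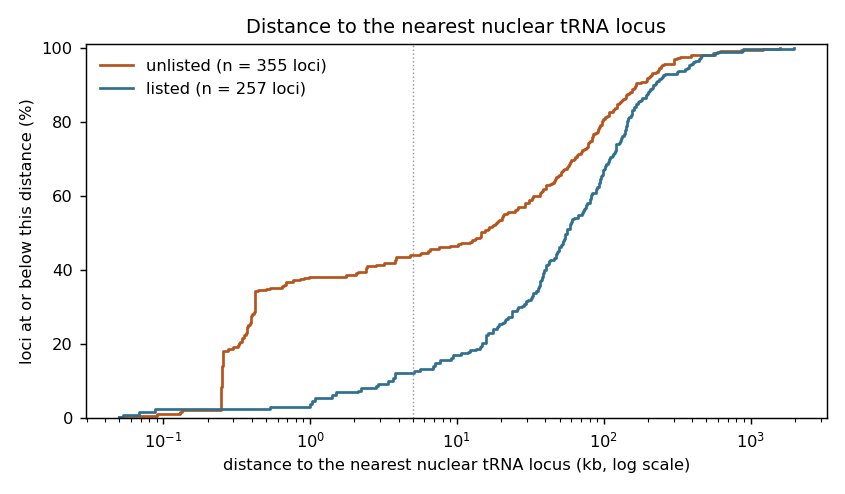
Cumulative percent of loci, unlisted (355) and listed (257), by the distance to the nearest nuclear tRNA locus in kb on a log scale. The dotted line marks 5 kb, below which 43.9% of unlisted and 12.1% of listed loci have a neighbour.

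Most unlisted entries held a cytosine at 1 or more of the positions at which m5C was listed in other tRNAs. A C at 38, 48, 49 or 50 was present in 30 of 34 unlisted entries, with 340 of the 355 loci, and in all 24 listed entries, where the listing itself requires a C at a listed position. Position 48 held a C in 26 unlisted entries (76.5%), with 324 loci, and in 20 listed entries (83.3%), with 215 loci. In 16 of those 20 listed entries C48 was a listed site. Position 50 held a C in 16 unlisted entries (47.1%) and in 11 listed entries (45.8%), of which 5 were listed there. By loci these shares were 72.1% and 51.8%, since Tyr(GTA), Pro(TGG) and Ser(AGA) all have a C50.

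The widest gap between the groups' shares of entries was at position 49. It held a C in 8 unlisted entries (23.5%), with 79 loci, and in 15 listed entries (62.5%), with 172 loci. C49 was a listed site in 14 of those 15, where the listing itself required the C, so part of this gap comes from the selection. The commonest base there in unlisted entries was G, in 17 of 34, and G stood there in 9 of the 24 listed entries. Position 38 held a C in 6 of the 33 unlisted entries with a known anticodon (18.2%), with 34 loci, and in 7 listed entries (29.2%), with 94 loci. By loci these shares were 9.6% and 36.6%. C38 was a listed site in 3 of those 7, Asp(GTC), Gly(CCC) and Gly(GCC). At 72, where 1 site was listed, 28 unlisted entries (82.4%) and 22 listed entries (91.7%) had a C.

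**Figure D5:**
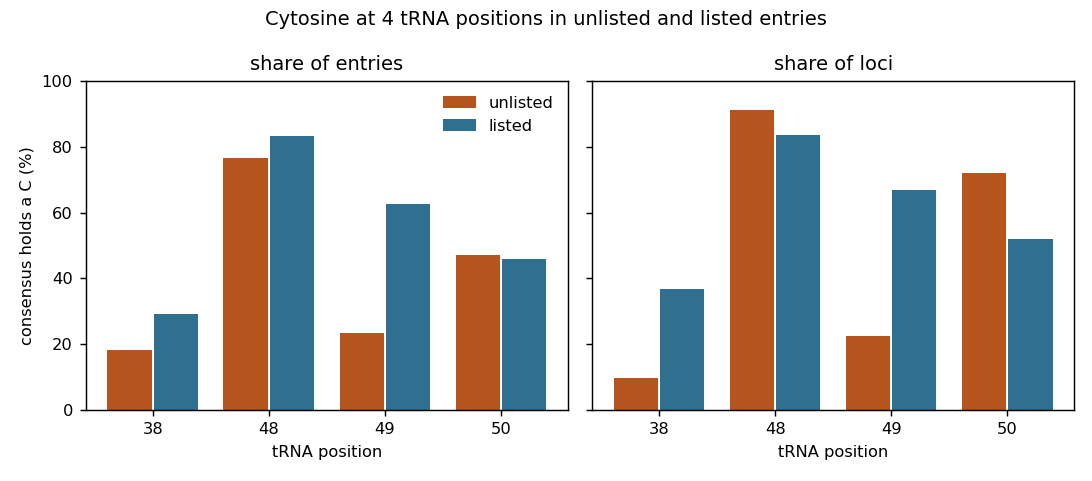
Percent of consensus entries (left panel) and of their loci (right panel, each locus taken to have its consensus base) with a C at positions 38, 48, 49 and 50, unlisted left of listed. Position 49 shows 23.5% of unlisted and 62.5% of listed entries, and position 48 shows 76.5% and 83.3%; listed entries must hold a C at their listed position.

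The 6 unlisted entries with C38 fell into 3 kinds by their bases at 36 and 37. Val(AAC), with 15 loci, Val(TAC), with 7, and Gly(ACC), with 1, had C36, A37 and C38, as did the 3 entries listed at 38 and also Glu(CTC), Glu(TTC) and Val(CAC), which were listed at other positions only. Leu(TAG), with 9 loci, and Leu(GAG), with 1, had G36, G37 and C38, as did the listed His(GTG) entry, which had no listed site at 38. Met-e-(CAT)1, with 1 locus, had T36, A37 and C38. The base after C38 was G in all 3 entries listed at 38, and among the 6 unlisted entries it was G in Val(TAC) and Met-e-(CAT)1. Val(AAC) and Val(TAC) each had a C at 48 and 50 with a T between them.

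The number of C at 48, 49 and 50 was 0 in 4 unlisted entries with 15 loci, 1 in 15 entries with 97 loci, 2 in 10 entries with 167 loci and 3 in 5 entries with 76 loci. For listed entries it was 0 in 0 entries, 1 in 9, 2 in 8 and 3 in 7. The 4 unlisted entries without any were Arg(TCT) with 9 loci, Arg(CCG) with 3, Ile(AAT)1 with 2 and Thr(CGT)1 with 1. None of them had C38 as placed. In Thr(CGT)1 the CGT lies in a stretch that Leu(CAA), its nearest entry, has in the variable arm, so its position 38 is uncertain. For these 15 loci (4.23% of the unlisted loci) the consensus, as placed, offers no cytosine at the 4 positions. The 5 unlisted entries with C at all 3 by this placement were Pro(TGG) with 44 loci, Pro(AGG) with 16, Met-i-(CAT) with 10, Pro(CGG) with 5 and Leu(AAG)1 with 1. Counted back from the T loop, Gly(ACC) with 1 locus would join them. The C counted at 50 in Tyr(GTA)1 lies in its T loop. The 7 listed entries with C at all 3 had a listed site at C49 in 7, at C48 in 5 and at C50 in 5.

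The 3 bases at 48 to 50 of an unlisted entry often recurred in listed entries. This was so for 17 of the 34 unlisted entries, with 189 loci. A C48 followed by G and C occurred in Ser(AGA), Phe(GAA) and Ile(TAT), 58 unlisted loci, and in 4 listed entries, all with a listed site at C48. A C48 followed by G and T occurred in 7 unlisted entries with 43 loci, 5 of them Leu, and in 4 listed entries, again all listed at C48. A C48 and C50 with an A between them, found in Tyr(GTA) and Cys(GCA), 84 unlisted loci, occurred in no listed entry. The same held for C, T and C in both Val entries, 22 loci.

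Over a longer stretch the overlap was small. From position 44 to 56 only Ser(AGA) and Arg(CCG)1 were identical to a listed entry. Ser(AGA) shared these 13 bases with Ser(CGA) and Ser(TGA), both listed at C48, and the listed Ser(CGA) consensus is shown for comparison with that of Ser(AGA).
Ser(CGA): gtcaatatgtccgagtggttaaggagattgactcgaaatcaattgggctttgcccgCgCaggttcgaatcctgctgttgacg
Arg(CCG)1, at chr3:3995097-3995169, shared them with Arg(TCG), also listed at C48. In the anticodon loop, from 32 to 38, Ile(AAT)1, Leu(TAA)1 and Lys(CTT)1 were identical to the listed entry of the same anticodon, none of which was listed at 38.

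Whole consensus sequences were compared by identity. The nearest listed entry had a median identity of 70.7% with an unlisted entry (range 59.5% to 83.3%), and 80.3% with another listed entry (range 60.8% to 93.2%). The ranges overlapped, and the fewest edits between an unlisted and a listed entry were 12. For the 12 unlisted entries of the 7 amino acids without a listed entry, the nearest listed entry was necessarily of another amino acid. The medians therefore depend on how amino acids divide between the groups. Against entries of any origin the medians were 79.7% for unlisted and 80.6% for listed entries. After every C was replaced by T, as bisulfite does to unmethylated RNA, the median identity with the nearest listed entry was 76.7% for unlisted entries and 81.9% for listed entries, and the fewest edits between an unlisted and a listed entry were 9. After this replacement 3 of 34 unlisted entries were within 2 edits of another entry, against 2 of 24 listed entries. These 3 were the Pro entries: Pro(AGG) and Pro(TGG) differed by 2 edits before and after conversion, and Pro(CGG) and Pro(TGG) by 5 edits before and 2 after.

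Cytosine made up 17.5% to 27.8% of an unlisted consensus, with a median of 23.6%, and 20.7% to 30.1% of a listed one, with a median of 26.7%. Consensus length was 69 to 84 bases with a median of 73 in unlisted entries, and 71 to 83 with a median of 73 in listed entries. Leu and Ser tRNAs, which have a long variable arm, made up 9 of 34 unlisted entries with 75 loci and 4 of 24 listed entries with 27 loci. The T loop bases at 53 to 56 that most tRNAs share were in place in 30 of 34 unlisted and 22 of 24 listed entries. In Gly(ACC) and Tyr(GTA)1 they stood elsewhere, so the bases counted at 48, 49 and 50 for these entries are shifted. A T stood before the anticodon in 32 of the 33 unlisted entries with a known anticodon, the exception being the initiator Met-i-(CAT) entry, and in all 24 listed entries.

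Levels were also missing within the list. In the study's heatmap of wild type and tRNA methyltransferase mutants, white cells mark cytosines covered by fewer than 5 reads. Of the 24 listed entries, 13 lacked a level in at least 1 of the 9 columns of the tables at a listed site. These 13 had a median of 8 loci (range 4 to 17), and the 11 entries with a level in every column had a median of 11 (range 5 to 25). Listed entries had 4 to 25 loci. The 7 unlisted entries with 15 loci or more lay within or above that range, and the 12 with 1 or 2 loci lay below it. Arg(CCG) and Leu(CAG), with 3 loci each, also lay below it. Whether gene number bears on coverage was not tested, since the tables give no read numbers.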

How the data were processed

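tRNA was bisulfite sequenced in 11 libraries. Per the study's methods, the authors resolved the predicted tRNA genes into consensus sequences, aligned bisulfite reads to them and listed a site where at least 5 reads covered it and methylation reached 20%. The deposited tables give methylation in percent per listed site (wild type seedlings as the authors' mean of 3 libraries, the others 1 library each), with no read numbers, so the depth is unknown and no interval was computed. The deposited reference table gives a consensus sequence, gene identifiers and TAIR10 coordinates (printed as deposited). RefSeq (assembly TAIR10.1) served for gene types and neighbours only.

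Entries of origin N only were divided by whether their name occurs in the experiment 1 table, and the experiment 2 table was an alternative. Members and lists were chosen with earlier results of these data known. Runs of at least 3 loci with gaps of at most 5 kb were tandem clusters. Scripts ran in Python 3.11.15 and were tested on simulated data. Entries named with values were those with 15 or more loci, with 1 or 2 loci, with C38, with 0 or 3 C at 48 to 50, in clusters of 5 or more, and Met-i-(CAT); others, such as Phe(GAA) pairs, were named after their values were seen. Columns of values matched to no sample numbered 0. No test was run, as members were selected on the measured levels. Alternatives were the gap and run length, the name match, the anchor of positions, weighting by loci, and identity after conversion.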

Additional observations from a re-analysis of the deposited data

How the results depend on the processing

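Of 33 alternatives, 28 stayed within 1.5 times the value given in the report, or within 1 SD for loci per entry. Some of the 28 could not move by construction. With 0 listed loci in clusters, for example, a shorter gap or a longer run also gives 0. With gaps of at most 1, 2, 10 and 20 kb, the unlisted loci in clusters were 123, 127, 133 and 144, against 127 at 5 kb. Listed loci in clusters were 0 up to 10 kb and 7 at 20 kb. When runs of 2 loci counted, 156 unlisted and 31 listed loci stood in a run. With each cluster counted once, chromosome 1 held 27% of the unlisted loci, against 49% when every locus was counted. Weighting entries by their loci moved the unlisted share with C38 to 9.6%, against 18.2% by entries, and that with C50 to 72.1%, against 47.1%. Dropping the closing digit of names left 348 unlisted loci. The experiment 2 table left 355, as it had to, since it lists the same sites. Counted back from the T loop, which could be done for 32 of 34 unlisted entries, C49 was present in 18.8%, against 23.5%. The entries left out, Leu(GAG) and Met-i-(CAT), both hold C49, so these shares differ by the entries counted. By this count Gly(ACC) gained a C48 and Tyr(GTA)1 lost its C50. No paired analysis was possible because the results come from no test. The tables used here give no read numbers, so the coverage of unlisted entries was not analysed.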

Other observations

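Among entries with C48, the base before it differed in the counts, a pattern noticed after the values were seen. Of 26 unlisted entries with C48, 19 had a T directly before it (252 of 324 loci). Among them were Tyr(GTA), the 3 Pro entries, Phe(GAA), Cys(GCA), Asn(GTT), Val(AAC), Val(TAC) and both Met entries of 10 loci or more. Of 20 listed entries with C48, 5 had a T there (56 of 215 loci) and 9 had an A (114 loci). In unlisted entries with C48, an A there occurred in 1, the single-locus Leu(GAG). Of the 16 listed entries with a site at C48, 3 had a T there (Arg(TCG), Ile(AAT) and Lys(CTT)) and 7 had an A. Positions were counted back from the last base, taken as 73. Where the variable loop is shorter, as in Asp(GTC), the base before C48 is not position 47 of the standard numbering. The counts therefore mix base and loop length, and loop length was not compared. Entries of an amino acid are alike in sequence, so these counts are a description.

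Unlisted anticodons that begin with A numbered 8 entries with 93 loci, against 3 listed entries with 42 loci. For a first base G the counts were 7 unlisted entries with 119 loci and 4 listed entries with 68 loci, and for C they were 12 unlisted entries with 67 loci and 8 listed entries with 68 loci. For a first base T the counts were 6 unlisted entries with 75 loci and 9 listed entries with 79 loci.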
